A study of Mus musculus with 87 samples.

Results

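Boundary B5 is one of the TAD boundaries that the study deleted from the mouse genome, and its neighbours are the T-box genes Tbx3 and Tbx5. TADs, or topologically associating domains, are stretches of chromatin whose sequences contact each other more often than they contact the rest of the chromosome, and boundaries are the sequences between them. The question was whether the embryonic heart changes its gene expression when this boundary is missing. All RNA-seq libraries of line B5 with embryonic heart as their source were taken, which gave 4 of the 64 RNA-seq libraries of the series. Of these, 2 came from embryos homozygous for the deletion and 2 from wild-type embryos, all of strain FVB and all collected at embryonic day 11.5. The deletion had been made by CRISPR/Cas9 in fertilized FVB eggs, the line descends from 1 founder, and the wild-type embryos were littermates from crosses of heterozygous parents. The labels do not say whether a library is 1 heart or several. The 4 libraries held 18790226 to 24310649 counts, and the number of libraries in each group, 2, limits every test below.

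In the mouse embryo the atria and ventricles of the heart balloon out from a primitive, looped tube. T-box transcription factors divide this tube into regions. Tbx5 acts with Nkx2-5 and Gata4 to switch on chamber muscle genes such as Nppa and Gja5. Tbx2 and Tbx3 repress the same genes in the atrioventricular canal and the outflow tract, and Tbx3 also marks the future pacemaker tissue. A boundary between 2 such genes holds sites of the DNA-binding protein CTCF, at which the ring-shaped cohesin complex stops extruding loops, and this limits which enhancers reach which promoter.

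The deleted interval spans 33.9 kb, chr5:119710403-119744254 (mm10), and the GENCODE M21 annotation places no gene in it. The last annotated base of Tbx3 lies 25.7 kb to its left and the first base of Tbx5 lies 88.4 kb to its right. Both genes are read from left to right. The 4 guide sequences that made the deletion are shown because they fix its ends. Each is printed with its 20 bases of guide in lower case and the 3 bases of its PAM in capitals, and each matched chromosome 5 of GRCm38 at 1 place.
5-prime guide 1: tgctgagtcacacctacaagCGG
5-prime guide 2: atccagtgttgagccaacctAGG
3-prime guide 1: attgctctctgcgttgctgaCGG
3-prime guide 2: gtctctgagacccgttatccCGG
The first pair matched at chr5:119710368-119710390 and chr5:119710419-119710441, both on the minus strand. The other pair matched at chr5:119744178-119744200 on the plus strand and at chr5:119744242-119744264 on the minus strand. The cut positions these matches imply lay 7 to 60 bp from the nearer end of the reported interval.

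To show what the interval held in sequence, it was searched on both strands for the CTCF core strings CCNNNAGGGGGC, CCNNNAGGTGGC, CCNNNAGAGGGC and CCNNNAGATGGC. It held 7 matches, 5 on the plus strand and 2 on the minus strand. Of 4356 windows of the same length along chromosome 5, 75.4% held at least 1 match and 5.6% held 7 or more, so a single match is common and the number here was high. In 4 of the 7 matches the core was the same run of 12 bases, which occurs 3756 times on chromosome 5. The other 3 cores are rarer, with 9, 20 and 58 copies on the chromosome, and they are printed with the core in capitals and 9 bases on either side.
core 2: cgctcatggCCACGAGGGGGCagcagagcc
core 6: gatgagattCCCCCAGATGGCagctcctct
core 7: tgcctttggCCACTAGAGGGCaccagagac
These windows lie at chr5:119713055-119713084 on the minus strand, and at chr5:119739806-119739835 and chr5:119741304-119741333 on the plus strand. Read along their strand, the rarer cores at the right end of the interval run away from Tbx3, and the rarer core at the left end runs towards it. A match to these letters is a description of the sequence and not a measured CTCF site.

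Before the genotypes were compared, each library was checked against its labelled tissue. Levels are given as CPM, the count of a gene in proportion to the TMM-scaled total of its library. All 8 heart muscle markers were present in the 4 libraries, and each of the 3 markers named here was lowest in homozygous replicate 1. Tnnt2, cardiac troponin T, stood at 799 CPM in homozygous replicate 1, 2350 in homozygous replicate 2, 1880 in wild-type replicate 1 and 1420 in wild-type replicate 2. The ventricular light chain Myl2 stood at 680, 2540, 2140 and 1720 CPM in the same order. Nkx2-5, which specifies heart muscle, stood at 81.4, 249, 128 and 136 CPM.

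Homozygous replicate 1 also carried transcripts that the other 3 hearts nearly lacked. For comparison the 4 faces of the same line and 16 hearts of other lines were scaled together with the B5 hearts. The faces and the hearts of lines B2 and B3 were of both genotypes. The hearts of lines B6 and B7 were all homozygous for their own deletions. On this scale the neuronal tubulin Tubb3 and 10 other neuronal genes summed to 773 CPM in homozygous replicate 1. They summed to 45.1 CPM in homozygous replicate 2 and to 65.5 and 91.3 CPM in the wild-type hearts, while the faces held 1170 to 1630 CPM. The list of cranial and pharyngeal mesenchyme genes, with Dlx5 and Alx1 among them, summed to 544 CPM, against 10.1, 61.5 and 60.9 CPM. Six3 and Cryaa, genes of the developing eye, stood at 16.2 and 27.6 CPM in homozygous replicate 1 and had no count in the other 3 B5 hearts. Conversely, 13 erythroid genes, globins among them, summed to 9360 CPM in homozygous replicate 1 and to 133000, 109000 and 98300 CPM in the other hearts.

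**Figure D1:**
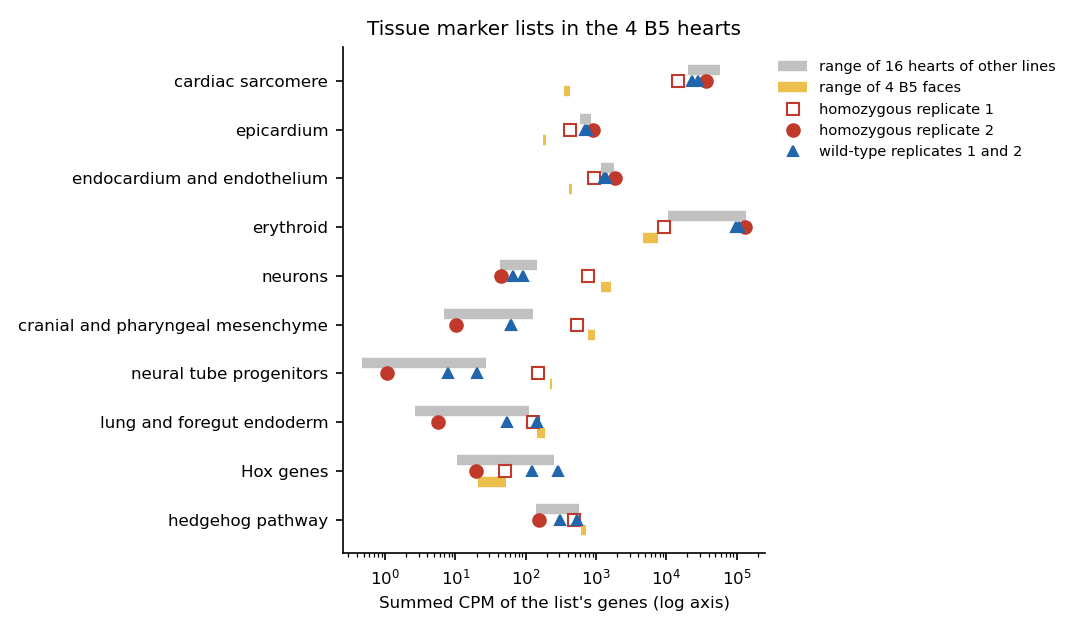
Summed CPM of 10 tissue marker lists on a log axis, with 24 libraries scaled together. Squares and circles are the homozygous hearts, triangles the wild-type hearts, grey bars the range of 16 hearts of other lines and yellow bars the range of 4 B5 faces. Homozygous replicate 1 lies between the other hearts and the faces for neuronal, cranial and heart muscle lists, and the wild-type hearts lie above homozygous replicate 2 for lung and foregut, Hox and hedgehog lists.

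Homozygous replicate 1 was then set against the faces and the other hearts over wider gene sets. Genes were chosen without homozygous replicate 1, at 10 CPM or more in every reference library and at least 20-fold apart between the faces and the other 3 B5 hearts. For the 59 genes higher in face, homozygous replicate 1 held a median of 0.616 of the faces' mean level, with the middle of the genes between 0.557 and 0.657. The other 3 B5 hearts held 0.00646 to 0.0112, and the 16 hearts of other lines held 0.00282 to 0.0193. For the 135 genes higher in heart, homozygous replicate 1 held a median of 0.474 of the other B5 hearts' mean (quartiles 0.407 and 0.556), against 0.694 to 1.55 in the hearts of other lines. The library labelled homozygous heart replicate 1 therefore stood apart from all 19 other hearts in both directions.

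**Figure D2:**
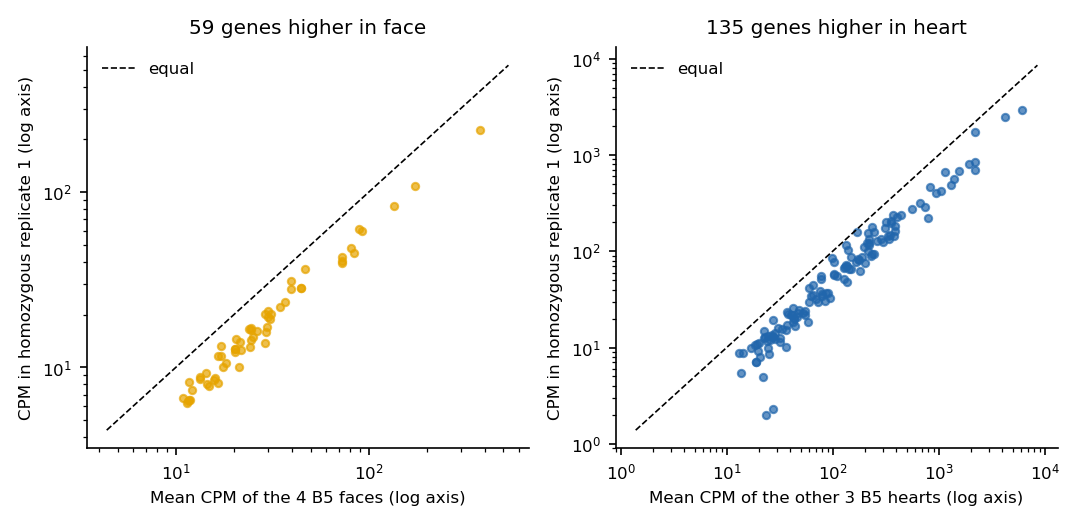
CPM in homozygous replicate 1 (vertical, log axis) against the mean of the 4 B5 faces for 59 genes higher in face, and against the mean of the other 3 B5 hearts for 135 genes higher in heart. Each point is a gene and the dashed line marks equal levels. In both panels the points lie below the line, at a median of 0.616 of the faces and 0.474 of the hearts.

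The sex-linked genes differed too. Homozygous replicate 1 held 136.9 CPM of Xist, the RNA that silences an X chromosome in female cells, and 57.2 CPM summed over the Y-linked genes Ddx3y, Eif2s3y, Kdm5d and Uty. Homozygous replicate 2 and wild-type replicate 2 held Xist at 92.0 and 156.1 CPM with the Y-linked genes at 0.0. Wild-type replicate 1 held 152.1 CPM of the Y-linked genes and 0.1 CPM of Xist. Over 5 CPM of Xist and of each Y-linked gene was read in 2 of the 24 libraries examined, this one and a B2 wild-type heart whose Xist was 8.5 CPM. Fold changes and list medians below are therefore also given without homozygous replicate 1 where they turn on it, and the contrasts between tissues and lines were computed only with it. In such bulk libraries, fewer cells of a type and less RNA per cell cannot be told apart.

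The genes beside the boundary were examined first. Tbx5 stood at 36.3 and 75.8 CPM in the homozygous hearts and at 76.0 and 116 CPM in the wild-type hearts. The groups did not overlap, but homozygous replicate 2 and wild-type replicate 1 differed by less than 1 CPM. The log2 fold change, homozygous over wild type, was -0.77 (SE 0.43, 95% interval -1.90 to 0.36, n = 2 and 2), and it did not pass the test after adjustment over all genes (edgeR, unadjusted p = 0.135). Without homozygous replicate 1 it was -0.33 (SE 0.26), and without homozygous replicate 2 it was -1.41 (SE 0.28). An exact permutation test of 2 against 2 libraries cannot give a p below 0.333. Groups did not overlap for 19.8% of all 15109 tested genes (2995 genes).

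The T-box genes were also set against heart muscle markers. In homozygous replicate 1 Tbx5 stood at 0.407 of the mean of the other 3 hearts, the 8 heart muscle markers at a median of 0.449 (range 0.284 to 0.796) and the 18 cardiac transcription factors at a median of 0.654 (range 0.421 to 2.3). Tbx3 stood at 1.38. Set against the summed heart muscle markers, Tbx5 measured 3.89 and 3.28 CPM per 1000 CPM of markers in the homozygous hearts. It measured 4.28 and 7.71 in the wild-type hearts, and 2.54 to 7.61 (median 3.76) in the 16 hearts of other lines. Among those 16 hearts were homozygotes for other deletions, B2 on the other side of Tbx5 included. On this scale all 4 B5 hearts but wild-type replicate 2 lay within the range of the other lines, and that library lay just above it. Tbx3 on this scale measured 4.3 and 0.752 in the homozygous hearts and 1.11 and 3.36 in the wild-type hearts. The other lines held 0.269 to 3.01, so homozygous replicate 1 and wild-type replicate 2 lay above that range. In the B5 faces, whose enriched genes homozygous replicate 1 also carried, Tbx3 stood at 47.0 to 61.8 CPM. The part of the tissue makeup in these values was not tested.

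Tbx3 was spread within both groups. It stood at 40.1 and 17.4 CPM in the homozygous hearts and at 19.6 and 50.3 CPM in the wild-type hearts. The groups overlapped fully, and the high value of each group was more than 2 times the low one. The log2 fold change was -0.28 (SE 0.61, 95% interval -1.90 to 1.33), with an unadjusted edgeR p of 0.664. Without homozygous replicate 1 it was -1.01 (SE 0.53), whereas it turned positive without homozygous replicate 2 (0.18) and without wild-type replicate 2 (0.54), so its direction rested on single libraries. Ranked among all 20 hearts with 1 as the highest, the B5 hearts took ranks 3 and 9 (homozygous) and 6 and 1 (wild type) for Tbx3, and ranks 20 and 17, and 18 and 5, for Tbx5. In TPM, which corrects for length, Tbx5 exceeded Tbx3 in all 4 hearts, with 15.4 against 13.7 in homozygous replicate 1, 20.4 against 3.79 in homozygous replicate 2, and 21 against 4.39 and 32.7 against 11.5 in the wild-type hearts.

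**Figure D3:**
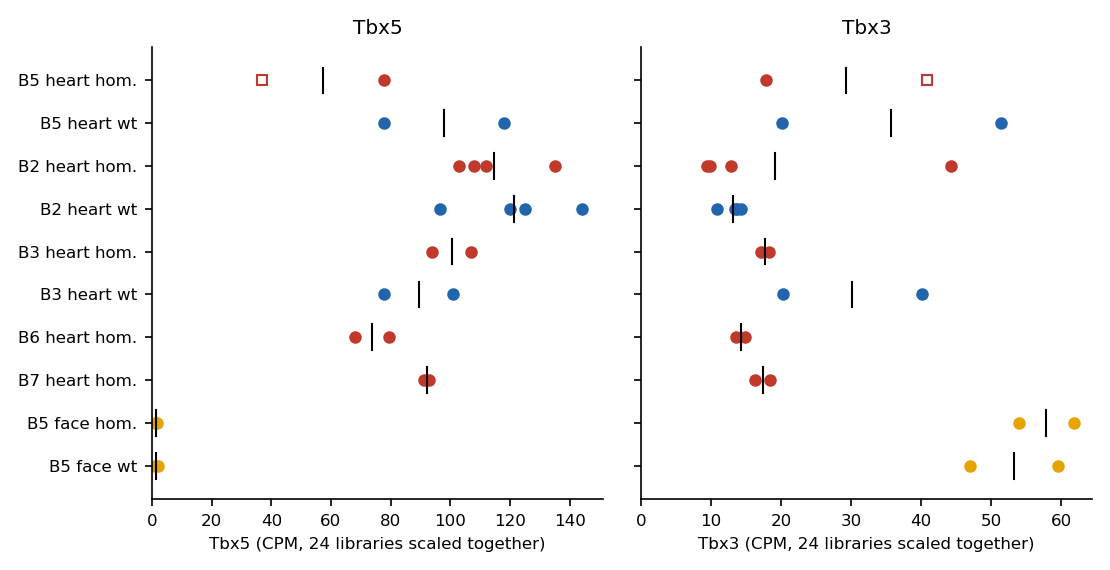
Tbx5 and Tbx3 in CPM, 24 libraries scaled together, for each heart group and the B5 faces. Points are libraries, the open square is homozygous replicate 1 and black bars are group means. Tbx5 is low in homozygous replicate 1 and near absent from the faces, and Tbx3 is highest in the faces, in homozygous replicate 1 and in 3 other hearts.

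No gene around the deletion passed the test. Of 29 annotated genes within 1 Mb, 14 were abundant enough to test and 7 had no count in any of the 4 hearts. None of the 14 was called, where 0% of all 15109 tested genes were called by edgeR at an adjusted p under 0.05, and none had an unadjusted p under 0.05, as 0.748% of all tested genes did. Their log2 fold changes ran from -0.77 (Tbx5) to 0.77, with a median of 0.07, beside 0.02 over all tested genes. Groups did not overlap for 2 of the 14, Tbx5 and Med13l, where 19.8% of all tested genes did not. Med13l, a subunit of the Mediator complex whose nearer end lies 945.0 kb to the left, stood at 59.5 and 56.1 CPM in the homozygous hearts and at 55.2 and 47.6 CPM in the wild-type hearts. The difference came to 0.17 on the log2 scale, with a 95% interval from -0.27 to 0.61.

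To the right of Tbx5, Rbm19, which acts in ribosome assembly, stood at 30.1 and 24.6 CPM against 19.8 and 28.8 CPM. Its difference was 0.17 on the log2 scale (95% interval -0.53 to 0.88) and -0.08 without wild-type replicate 1. The abundant RNA helicase gene Ddx54 stood at 112 and 118 CPM against 99.6 and 116 CPM. Both pairs of groups overlapped. Lhx5, a LIM homeodomain gene of the brain, was read at 4.29 CPM in homozygous replicate 1 and at 0.182 CPM in homozygous replicate 2, and at 0.221 and 0.00 CPM in the wild-type hearts, and it was too low to test. Gm10390, antisense to Rbm19, stood at 0.432 and 4.5 CPM against 3.42 and 3.5 CPM. These are the 2 genes within 1 Mb that were called when homozygous replicate 2 was left out, at log2 fold changes of 5.32 for Lhx5 and -2.99 for Gm10390, and in that fit homozygous replicate 1 stood alone for the genotype. In the 4 faces Lhx5 was read at 5.58 to 15.3 CPM and Gm10390 at 0.109 to 0.289 CPM, so Lhx5 was higher and Gm10390 lower there than in the other 3 hearts. Dtx1, a regulator of Notch signalling, stood at 7.53 and 0.591 CPM against 2.70 and 3.32 CPM, so the homozygous hearts enclosed the wild-type ones. The non-coding genes beside Tbx3 were near the limit of counting. Tbx3os1, antisense to Tbx3, had 14 and 2 counts in the homozygous hearts and 3 and 13 in the wild-type hearts. Strand was not given for the counting, so reads from the short stretch where it overlaps Tbx3 cannot be told apart. Gm10390 lies within the span of Rbm19, and the same limit may hold for its reads. Widening the window to 2 Mb gave 38 tested genes of 77 and no call, with a median log2 fold change of 0.07 with or without homozygous replicate 1.

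**Figure D4:**
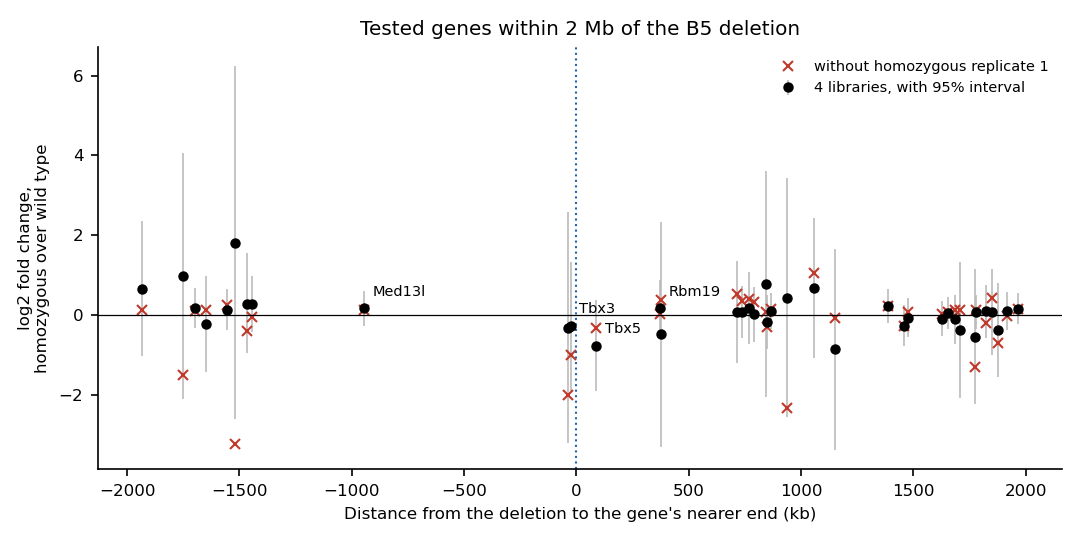
Log2 fold change, homozygous over wild type, for the 38 tested genes within 2 Mb of the deletion against their distance from it in kb (left of the dotted line is the Tbx3 side). Bars are 95% intervals of the fit to 4 libraries, and crosses are the values without homozygous replicate 1. All 38 intervals include 0.

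Other T-box genes were read for their roles in the same regions. Of the 17 family members 10 were tested and none had an unadjusted p under 0.05. Tbx2, the partner of Tbx3 in the atrioventricular canal, followed the pattern of Tbx3, with 123 and 33.1 CPM in the homozygous hearts and 44.7 and 133 CPM in the wild-type hearts. Tbx20, which restrains Tbx2 in the chambers, stood at 177 and 310 CPM against 226 and 154 CPM. Tbx4, a gene of lung and hindlimb mesenchyme, stood at 2.77 and 0.364 CPM against 2.59 and 33.3 CPM. Wild-type replicate 2 thus held the highest Tbx2, Tbx3 and Tbx4 of the 20 hearts.

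Across all 15109 tested genes, 0 passed an adjusted p of 0.05 in the edgeR fit. An unadjusted p under 0.05 was reached by 113, 39 of them higher and 74 lower in the homozygous hearts. These 113 are 0.748% of the genes, below the share of 0.05 that such p-values would reach with no difference at all. The edgeR fit of these 4 libraries could therefore call little. Its 0 calls, here, among Hox genes and near the deletion, do not show that expression was unchanged. DESeq2 on the same genes called 10 (0.0662%), of which 3 were higher and 7 lower. On simulated counts with the spread of these hearts, the share of false calls was above the threshold for both tools, and higher for DESeq2. The adjusted p-values of either tool may therefore be too small here. In those counts edgeR also recovered fewer of the genes given a known difference than DESeq2, and almost none of those given the smaller one. Leaving out homozygous replicate 1 gave 0 calls by edgeR with a smallest adjusted p of 0.0566. Leaving out homozygous replicate 2, so that replicate 1 alone stood for the genotype and was assumed to vary like the wild-type hearts, gave 918 calls, or 5.74% of 16003 tested genes. The genes called higher in that fit all had a higher mean level in the 4 faces than in the other 3 B5 hearts. Those called lower all had a lower one. The wild-type hearts are the reference in both differences, which by itself favours the same direction. The share of all tested genes with this agreement is not given here, and the part of face tissue in these calls was not tested. Between the homozygous replicates the chi-square per gene was 290, against 21.4 between the wild-type replicates.

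Fam43b had the smallest p among the genes lower in the homozygous hearts. It stood at 0.072 and 0.0455 CPM against 1.38 and 1.75 CPM, where 0.0455 CPM is 1 count. Fendrr, a long non-coding RNA of lateral mesoderm that starts beside Foxf1, stood at 0.648 and 0.136 CPM against 4.30 and 6.32 CPM. Actg2, the smooth muscle actin of the gut wall, stood at 3.24 and 3.09 CPM against 8.55 and 13.5 CPM. In each of these 3 genes the homozygous values were below both wild-type values by a factor of 2 or more. Their log2 fold changes were -4.59 (SE 0.68), -3.71 (SE 0.83) and -1.80 (SE 0.37), and without homozygous replicate 1 they were -4.93, -5.22 and -1.83. Of the 3, DESeq2 called Fendrr (adjusted p = 0.0311), and edgeR called it without homozygous replicate 2 (adjusted p = 0.0301).

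Among genes higher in the homozygous hearts, Sox3 had the smallest unadjusted edgeR p of those with a proper symbol. Sox3, a SoxB1 factor of neural and pituitary development, stood at 30.1 and 31.9 CPM in the homozygous hearts and at 11 and 14.5 CPM in the wild-type hearts. Both homozygous values also lay above the 16 hearts of other lines, which held 8.28 to 28.8 CPM, and the 2 homozygous libraries were ranks 2 and 1 of 20. The B5 faces held more Sox3 than any heart, at 34.8 to 48.1 CPM, and homozygous replicate 1 carried face-enriched genes. The part of these in its Sox3 level was not tested. The log2 fold change of Sox3 was 1.28 (SE 0.23) and 1.33 without homozygous replicate 1, at a DESeq2 adjusted p of 0.0735 with all 4 libraries. Gata2, a factor of blood progenitors and endothelium, stood at 37.5 and 28.1 CPM against 18.8 and 18.3 CPM, with a log2 fold change of 0.82 (SE 0.22). Smoc1, a matrix protein that modulates BMP signalling, stood at 22.8 and 16 CPM against 9.10 and 9.86 CPM, with a log2 fold change of 1.03 (SE 0.28). The groups of these 3 genes did not overlap, as for 9.4% of tested genes in this direction, and none was called by edgeR or DESeq2 with all 4 libraries. Without homozygous replicate 2 edgeR called all 3, with adjusted p-values of 0.0435 for Sox3, 0.0321 for Gata2 and 0.0306 for Smoc1. Without homozygous replicate 1 none was called, and the log2 fold changes of Gata2 and Smoc1 fell to 0.60 (adjusted p = 0.316) and 0.76 (adjusted p = 0.321).

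B430305J03Rik, on chromosome 3, had the smallest p of all tested genes. It stood at 6.45 and 4.91 CPM in the homozygous hearts and at 0.276 and 0.179 CPM in the wild-type hearts, with a log2 fold change of 4.62 (SE 0.52, DESeq2 adjusted p = 2.39e-05). By edgeR it was called without homozygous replicate 2 (adjusted p = 0.00949). The log2 fold change was 4.42 without homozygous replicate 1 and was not called. The level of this gene differed between lines, with 0.00 CPM in all 8 B2 hearts and 1 to 8.44 CPM in the 8 hearts of B3, B6 and B7, so the B5 wild-type hearts lay between these sets. The B5 faces held 9.28 and 12.7 CPM (homozygous) and 3.76 and 11.4 CPM (wild type). The pseudogene Gm10259, also called by DESeq2, had 46 and 326 counts in the homozygous hearts and none in the wild-type hearts, and it ranged up to 27.2 CPM in the other hearts. Gm28048 had no count in the homozygous hearts and 185 and 16 in the wild-type hearts. Reads of such copies can be shared with near-identical genes, so these values are uncertain.

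Hox genes give cells of the trunk and neck their position along the body axis, and paralogue groups 1 to 5 reach furthest towards the head and into the posterior heart field. Hoxa4, Hoxb4 and Hoxc4 had been listed by the study for this comparison, on these same samples, so their direction here is not independent evidence. Hoxa4 stood at 1.44 and 0.455 CPM in the homozygous hearts and at 10.3 and 22.6 CPM in the wild-type hearts. Hoxb4 stood at 4.72 and 3.14 CPM against 13.9 and 27.3 CPM. Hoxc4 stood at 1.19 and 0.455 CPM against 8.28 and 12.8 CPM. For the 3 genes every homozygous value was below every wild-type value by a factor of 2 or more, and homozygous replicate 2 was lowest each time.

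The log2 fold changes were -4.10 (SE 0.75) for Hoxa4, -2.39 (SE 0.46) for Hoxb4 and -3.66 (SE 0.62) for Hoxc4. They were -5.16, -2.71 and -4.51 without homozygous replicate 1. None passed the adjusted edgeR test with or without that library, and DESeq2 gave adjusted p-values of 3.69e-05, 0.0057 and 8.22e-05. Of 39 Hox genes 17 were tested, because the other 22 had too few counts, and a gene read only where Hox expression was high could pass the filter. All 17 were lower in the homozygous hearts, with a median log2 fold change of -2.10 against 0.02 over all tested genes. An unadjusted p under 0.05 was reached by 11 of the 17, against 0.49% of all tested genes in this direction, and the groups did not overlap for 11, against 10.4%. Hoxa5, at 2.16 and 0.591 against 11 and 45.5 CPM, and Hoxb5, at 1.4 and 0.136 against 4.69 and 36.7 CPM, were called by DESeq2 as well. Without homozygous replicate 1 the median was -3.01. Without homozygous replicate 2 edgeR called 2 of 23 tested Hox genes, Hoxa4 (adjusted p = 0.0343) and Hoxc4 (adjusted p = 0.0189).

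**Figure D5:**
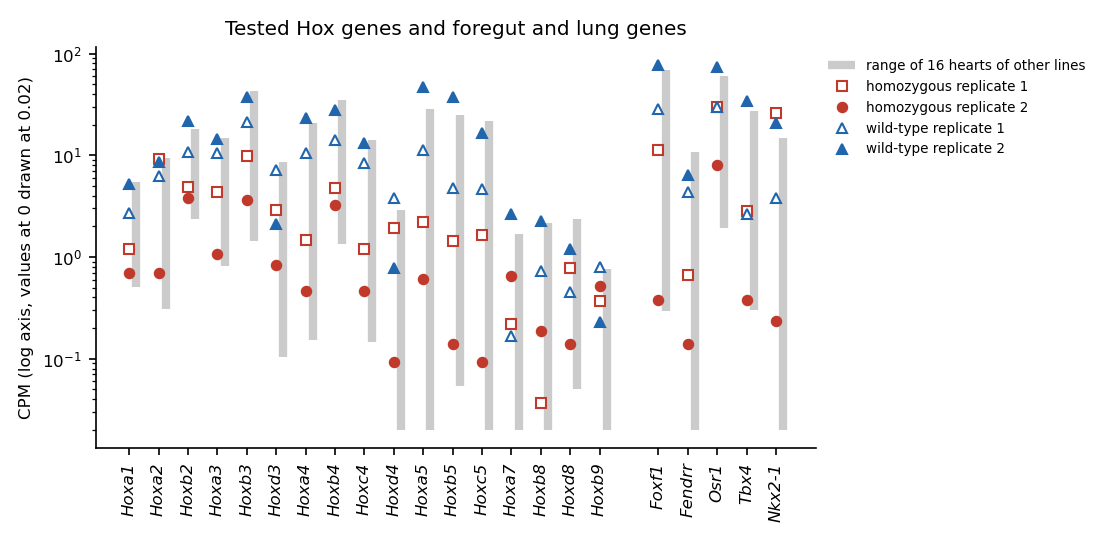
CPM on a log axis, 24 libraries scaled together, of the 17 tested Hox genes ordered by paralogue group and of 5 foregut and lung genes. Red symbols are homozygous hearts, blue triangles wild-type hearts and grey bars the range of 16 hearts of other lines. Wild-type replicate 2 is the highest B5 heart for most Hox genes and for Foxf1, Fendrr, Osr1 and Tbx4, and homozygous replicate 2 is the lowest for most of them.

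Genes of the lung bud and its mesenchyme were read in the same libraries. Foxf1, the hedgehog-responsive factor of splanchnic mesenchyme, stood at 11.1 and 0.364 CPM in the homozygous hearts and at 28 and 75.3 CPM in the wild-type hearts. Nkx2-1, which marks lung and thyroid endoderm and part of the forebrain, stood at 25.9 and 0.227 CPM against 3.75 and 20.1 CPM. Foxa2, a factor of foregut endoderm, stood at 1.22 and 0.182 CPM against 3.75 and 10.5 CPM. Homozygous replicate 2 held almost none of the 3. Foxf1 and Foxa2 had the order of Hoxa4 over the 4 hearts, but Nkx2-1 was highest in homozygous replicate 1, and the faces held it at 14 to 43.5 CPM. The 8 lung and foregut genes summed to 126 and 5.70 CPM in the homozygous hearts and to 53.9 and 146 CPM in the wild-type hearts. The hedgehog list summed to 484 and 156 CPM against 308 and 540 CPM. In the B5 faces these lists summed to 146 to 190 and to 615 to 717 CPM, and Foxf1 stood at 18.4 to 22.2 CPM. The Hox genes summed to 51.2 and 19.7 CPM against 121 and 286 CPM, so the 3 sums share the lowest and the highest library and differ in the place of homozygous replicate 1. The part of neighbouring or face tissue in these sums and in the Hox difference was not tested.

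Hoxa4, Hoxb4 and Hoxc4 were set against Foxf1 in hearts that do not carry the B5 deletion, and no other pair of genes was computed. Foxf1 was picked after its values in the B5 hearts were seen. The hearts used differ in line and genotype, which a correlation over all of them does not separate. The values describe those hearts, and their bearing on the Hox difference in B5 was not tested. Over the 16 hearts of other lines, on the log2(CPM + 1) scale, Hoxa4 and Foxf1 had a Pearson r of 0.93 (permutation p = 2e-05, the smallest these resamples can give, adjusted 6e-05) and a Spearman rho of 0.84 (permutation p = 0.0001, adjusted 0.00015). Without the 2 hearts farthest from the median of Foxf1, r was 0.87. Within the 8 B2 hearts r was 0.89, and within the 8 hearts of B3, B6 and B7 it was 0.96. Of the 3 relations computed, Hoxb4 had r = 0.86 and rho = 0.87, and Hoxc4 r = 0.75 and rho = 0.81 (adjusted permutation p = 0.00298 for r and 0.00018 for rho). Hoxc4 fell to r = 0.54 without the 2 farthest hearts and to 0.38 within the B2 hearts (exact permutation p = 0.368), so that relation rested on few libraries. Hoxb4 within the B2 hearts had r = 0.66 (exact permutation p = 0.0818).

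Chamber genes, the targets of Tbx5 and the genes that Tbx3 represses, were compared next. Of 14 chamber myocardium genes 0 were called and 1 had an unadjusted p under 0.05, and the median log2 fold change was -0.06, which turned to 0.32 without homozygous replicate 1, where 2 of the 14 were lower. The gene with the small p was Nppb, which encodes B-type natriuretic peptide. It stood at 30 and 59.5 CPM against 103 and 85.8 CPM, with a log2 fold change of -1.07 (SE 0.37), of -0.66 without homozygous replicate 1 and of -1.66 without homozygous replicate 2, where edgeR called it (adjusted p = 0.0102). Nppa, its partner peptide, stood at 220 and 801 CPM against 601 and 923 CPM, and Gja5, the fast-conducting connexin, at 71.1 and 155 CPM against 128 and 100 CPM. Both overlapped between the groups.

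For the heart lists as a whole the 2 homozygous libraries lay on either side of the wild types. The 22 cardiac sarcomere genes summed to 14500 and 36100 CPM in the homozygous hearts and to 28500 and 23300 CPM in the wild-type hearts. The median log2 fold change of their members was -0.06 with all libraries and 0.43 without homozygous replicate 1. The 18 cardiac transcription factors gave 0.06 and 0.45, the 18 endocardial and endothelial genes 0.01 and 0.41, and the 14 epicardial genes -0.09 and 0.37. None of these members had an unadjusted p under 0.05. Hcn4, the pacemaker channel, was nearly level at 22.2 and 23.4 CPM against 23.7 and 22.1 CPM, and the 16 genes of the sinus node and atrioventricular canal had a median of 0.03 (-0.16 without homozygous replicate 1). The 12 genes of CTCF, cohesin and their partners had a median of 0.10 that turned to -0.14 without homozygous replicate 1, where 9 of the 12 were lower, with Ctcf at 128 and 86.7 CPM against 96.8 and 102 CPM.

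Retinoic acid, made in the posterior mesoderm, sets the anterior limit of Hox expression, so its pathway was read beside the Hox genes. Of 15 listed genes 14 were tested, 0 were called and 1 had an unadjusted p under 0.05, with a median log2 fold change of 0.37 that turned to -0.57 without homozygous replicate 1. That gene was Dhrs3, which returns retinaldehyde to retinol. It stood at 8.79 and 9.05 CPM in the homozygous hearts and at 14 and 13.9 CPM in the wild-type hearts, and its log2 fold change was -0.64 (SE 0.24). Aldh1a2, the main enzyme of retinoic acid synthesis in the embryo, stood at 55.6 and 75.9 CPM against 78.1 and 110 CPM. The groups did not overlap for either gene, as for 5 of the 14, where 19.8% of all tested genes did not, and the homozygous hearts were lower in 3 of those 5. In contrast Aldh1a3 and Crabp1 followed homozygous replicate 1, with 19.7 and 0.409 against 0.883 and 0.897 CPM for Aldh1a3 and 172 and 7 against 32.2 and 21.1 CPM for Crabp1.

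Genes of the second heart field, the progenitors that add the outflow tract and right ventricle, had the same split. Of 11 tested genes none had an unadjusted p under 0.05, and the median log2 fold change was 0.21 with all libraries and -0.84 without homozygous replicate 1. Isl1, a factor of these progenitors, stood at 23.6 and 5.55 CPM against 14.9 and 5.11 CPM, so the groups overlapped. Among cushion mesenchyme genes Msx1 stood at 106 CPM in homozygous replicate 1 and at 7.32 to 7.58 CPM in the other 3 hearts. Transcripts of other organs were read in single hearts too. Alb, the albumin gene of liver, stood at 31 CPM in wild-type replicate 1 and at 1.64 CPM or lower in the other 3, and Sftpc, a surfactant gene of lung epithelium, was read at 3.5 CPM in wild-type replicate 2 and had no count in the other 3.

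The remaining lists gave few tested differences. Hba-a2 of the erythroid list had an unadjusted edgeR p under 0.05, at 289 and 1050 CPM against 123 and 200 CPM. It was higher in the homozygous hearts, and the other 12 of 13 erythroid genes were lower. So did mt-Co3 of the mitochondrially encoded list, at 1450 and 1530 CPM against 2270 and 2560 CPM. Of the 13 genes of that list 11 were lower and 2 higher. All 10 macrophage genes were lower in the homozygous hearts, with a median of -0.54, and the groups did not overlap for 5 of them, against 10.4% of all tested genes in this direction. Of all 15109 tested genes 6926 were lower. The macrophage median was -0.49 without homozygous replicate 1, and 9 of the 10 were lower. Csf1r, the receptor that macrophages need to survive, stood at 11.1 and 11.1 CPM against 13 and 18.7 CPM. Of 76 cytosolic ribosomal protein genes 74 were lower, with a median of -0.23, and the groups did not overlap for 52, against 10.4% of all tested genes. Without homozygous replicate 1 that median was -0.15. No member of the macrophage or ribosomal protein list had an unadjusted p under 0.05.

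The genotype difference was compared with that in the face of the same line. Tbx5 was near absent from the faces, at 1.03 and 1.60 CPM in homozygous and 0.91 and 1.95 CPM in wild-type faces, and Tbx3 stood at 54.0 and 61.8 CPM against 47.0 and 59.6 CPM. The interaction contrast, heart minus face, called 0 of 16116 genes in edgeR (215 at an unadjusted p under 0.05). It was -0.64 (SE 0.72) for Tbx5 and -0.44 (SE 0.70) for Tbx3 on the log2 scale. For Sox3 it was 1.54 (SE 0.27), because Sox3 in the faces differed the other way by -0.26. Hoxa4 in the faces was at 0.183 and 0.0363 CPM in the homozygous and at 0.702 and 0.403 CPM in the wild-type libraries, and its contrast was -1.86 (SE 1.25). Homozygous replicate 1 enters each of these contrasts.

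Hearts of 2 other lines served for the same comparison. B2 is the boundary on the other side of Tbx5, with 4 homozygous and 4 wild-type hearts, and B3 lies on another chromosome, with 2 and 2. The contrast of B5 minus B2 called 0 of 16048 genes and that of B5 minus B3 also called 0 (516 and 684 at an unadjusted p under 0.05, edgeR). For Tbx5 the difference was -0.69 (SE 0.36) from B2, where Tbx5 itself differed by -0.06 between genotypes, and -0.94 (SE 0.41) from B3, where it differed by 0.17. Neither passed the adjusted test. For Hoxb4 the B5 effect differed from that in B3 by -0.04 (SE 1.18). In B3 hearts, Hoxa4, Hoxb4 and Hoxc4 were lower in homozygotes by log2 fold changes of -2.99, -2.33 and -3.52. None of them passed the adjusted test. Hoxa4 stood at 2.45 and 0.626 CPM in homozygous and at 3.95 and 20.6 CPM in wild-type B3 hearts. Hoxb4 stood at 4.15 and 4.53 CPM against 8.91 and 35.1 CPM. B3 wild-type replicate 2 was far the highest for all 3 genes and for Foxf1, at 69.5 CPM. B3 wild-type replicate 1 was also above both homozygotes for the 3 genes. The fold changes without replicate 2 were not computed. In B2 hearts the log2 fold changes of the same 3 genes were -0.61, 0.47 and 1.12.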

How the data were processed

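RNA was extracted from hearts of embryos of line B5 and sequenced as paired reads by a company. The authors mapped the reads to mm10 with STAR and deposited RSEM tables that hold an expected count per gene, an estimated count of reads that is not normalized, and a TPM value, scaled by the authors to length and depth. Library kit and strand setting are not given in the sources used here, and the labels name bcl2fastq and STAR without versions. Entries other than Ensembl genes were left out. Of 43346 Ensembl genes 42462 were placed in GENCODE M21 (GRCm38). Other columns of the tables, such as FPKM, were not used, and 40 of the 64 RNA-seq libraries were not analysed here.

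After rounding to whole numbers and filtering by filterByExpr, 2 homozygous hearts were compared with 2 wild-type hearts by the quasi-likelihood test of edgeR 4.0.16 (glmQLFTest) with TMM factors. P-values were adjusted over all tested genes by Benjamini and Hochberg's method with a threshold of 0.05, and intervals are at 95%. Differences between genotype effects were contrasts in joint fits of 8 libraries (B5 heart and face) and 16 libraries (hearts of B2, B3 and B5). The test was repeated without each library, with RLE factors, without the filter, in the joint fits, over other windows and with DESeq2 1.42.0. Leaving globin genes out of library sizes, and DESeq2 without the filter, were alternatives chosen after seeing the data. TPM was used for levels between genes only. Both tools were tested on simulated counts with known changes, where the share of false calls was above the threshold for both and higher for DESeq2 than for edgeR. Correlations used SciPy with 100000 resamples.

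The heart libraries held 18790226 to 24310649 counts and no pair of B5 hearts agreed within sampling noise (lowest chi-square per gene 21.4). The methods speak of independent biological samples, but the labels do not tie libraries to embryos, so p-values measure only the spread between these samples, which may be technical. The members and the 32 gene lists were chosen with earlier results of these data known. Named were Tbx3, Tbx5, genes within 1 Mb, T-box genes, genes the study lists for this comparison, up to 10 genes per direction with the largest change among calls and the 10 with the smallest unadjusted p and a proper symbol, the leading members of each list by p and by level, and sex-linked genes. The face and heart gene sets, Foxf1, Lhx5, Gm10390, Dtx1, Ddx54, Tbx3os1, Six3, Cryaa, Gm10259, Gm28048, Hoxa5 and Hoxb5 were picked for display after their values were seen or by position. Guides were read from the study's supplementary list and sequence from RefSeq GRCm38.p6.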

Additional observations from a re-analysis of the deposited data

How the results depend on the processing

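With edgeR the number of genes called in B5 hearts stayed at 0 with RLE factors, without the filter, in both joint fits and with globin genes left out of library sizes. DESeq2 called 10 genes, 5 of them Hox genes, and 8 genes, 4 of them Hox genes, without the filter. The cause of the difference between the tools was not tested. Leaving out each library in turn gave 0 to 918 calls, 0 to 2 among Hox genes and 0 to 2 among genes within 1 Mb, where each upper value was the fit without homozygous replicate 2, in which 1 library stands for the genotype. Across the same fits Tbx3 ran from -1.01 to 0.54 on the log2 scale, with 0.18 without homozygous replicate 2, and Rbm19 from -0.08 to 0.47, with the negative value without wild-type replicate 1. Tbx5 ran from -1.41 to -0.33 and passed the threshold in none of them. Windows of 0.5 and 2 Mb held 0 called genes, as did the differences between genotype effects with RLE factors or without the filter. Besides Tbx3 and Tbx5, 13 genes of the text were followed through every setting. Under the settings that kept all libraries, 91 of 91 values had the direction reported, and 10 passed the threshold, all with DESeq2. Those settings reuse the counts of the same 4 B5 hearts, so the shared direction was close to given and is no independent support. No paired analysis was possible because the library codes of the hearts carry no number that the groups share. With 2 libraries a group, the intervals given for Tbx5 and Tbx3 limit what can be said of them.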
